A study of Mus musculus with 12 samples.

Results

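The Nrf2 antioxidant response genes described here are 9 genes chosen by name, in a choice made with earlier results of these data known: Nfe2l2, which encodes the transcription factor Nrf2, its inhibitor Keap1, and the Nrf2 target genes Nqo1, Gclc, Gclm, Hmox1, Srxn1, Txnrd1 and Slc7a11. They are 9 of the 52636 genes counted. The libraries came from the left lateral liver lobe of 12 male C57Bl/6J mice at 16 weeks of age. In 6 of them (VDD-F1, VDD1 to VDD6) the dam ate a vitamin D deficient diet, with calcium gluconate added, before mating and through pregnancy. In the other 6 (VDS-F1, VDS1 to VDS6) the dam ate a nutrient-matched vitamin D sufficient diet. All dams ate the sufficient diet after delivery and all offspring ate it after weaning, so the stated difference between the groups is what the dam ate until delivery, and the sources do not say which mice shared a dam.

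Nrf2 is the main activator of genes that defend cells against oxidants and electrophiles. In unstressed cells Keap1 binds Nrf2 and presents it to a ubiquitin ligase, so that it is degraded. When electrophiles or peroxides modify cysteines of Keap1, Nrf2 escapes and enters the nucleus. There it pairs with a small Maf protein and binds antioxidant response elements near its targets. Much of this control acts on the protein, so the mRNA of Nfe2l2 and Keap1 need not follow the activity of Nrf2. In liver the pathway is known for glutathione synthesis, quinone detoxification, haem breakdown and repair of oxidized peroxiredoxins.

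The sequence upstream of 4 members is shown because the later values turn on them: Srxn1 had the smallest p of the members for diet, Nqo1 varied most among the 8 genes that could be tested, Gclm followed the set of mice, and Slc7a11 had 54 of its 70 counts in 1 mouse. The sequences are from RefSeq on GRCm38.p6, run 5′ to 3′ on the strand of the gene and end at its exon. Capitals mark the antioxidant response element cores searched on both strands, TGACNNNGC and TGAGNNNGC, and the AP-1-like motif TGANTCA, which overlaps some of them.
Srxn1, chr2:152105274-152105515, plus strand: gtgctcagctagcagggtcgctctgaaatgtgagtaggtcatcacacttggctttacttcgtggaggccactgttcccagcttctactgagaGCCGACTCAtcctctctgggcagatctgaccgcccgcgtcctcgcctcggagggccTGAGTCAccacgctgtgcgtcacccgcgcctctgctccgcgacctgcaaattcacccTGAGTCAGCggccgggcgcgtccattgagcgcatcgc
Nqo1, chr8:107403207-107403455, minus strand: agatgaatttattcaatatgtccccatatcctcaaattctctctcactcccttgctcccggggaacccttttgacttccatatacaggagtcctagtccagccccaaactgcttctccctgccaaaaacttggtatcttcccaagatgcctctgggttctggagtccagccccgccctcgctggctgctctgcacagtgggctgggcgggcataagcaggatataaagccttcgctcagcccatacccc
Gclm, chr3:122245307-122245556, plus strand: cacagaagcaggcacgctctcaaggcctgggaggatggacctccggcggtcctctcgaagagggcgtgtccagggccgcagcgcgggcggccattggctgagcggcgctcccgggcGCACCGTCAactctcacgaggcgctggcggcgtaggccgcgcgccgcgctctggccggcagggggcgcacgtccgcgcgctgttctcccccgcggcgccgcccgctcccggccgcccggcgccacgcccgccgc
Slc7a11, chr3:50443615-50443863, minus strand: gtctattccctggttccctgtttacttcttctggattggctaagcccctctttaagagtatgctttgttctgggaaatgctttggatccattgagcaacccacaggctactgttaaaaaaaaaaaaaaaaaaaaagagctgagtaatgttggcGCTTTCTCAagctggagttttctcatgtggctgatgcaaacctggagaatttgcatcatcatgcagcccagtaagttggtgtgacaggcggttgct
The Srxn1 sequence held 2 element cores. TGAGTCAGC lay on the strand of the gene with its first base 45 bases before the RefSeq start, and TGAGTCGGC lay on the other strand 158 bases before it. The letters TGAGTCA occurred at 45 bases, inside the first of these cores, and again at 102 bases. Gclm held TGACGGTGC on the other strand and Slc7a11 held TGAGAAAGC on the other strand. Among the members not shown, Nfe2l2 held TGACTCCGC and 1 of 3 starts of Txnrd1 held TGACAAAGC. In Nqo1 and Keap1 none of these letters occurred in the stretch read. Across 32851 upstream stretches of annotated starts, 23% held at least 1 of the element cores and 6.75% held TGANTCA, so a match is a description of the letters and not a site. Gclc and Hmox1 had no entry in the sequence table.

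The counted fragments per library ranged from 14275793 to 20815066, and the reverse strand, which was used, held 92.7% to 95.8% of the stranded counts. In VDS6, 12.4% of the fragments lay outside genes or on several genes. The hepatocyte markers fixed as a list summed to between 76890 and 104400 CPM (counts scaled to the library size, after TMM) and were abundant in all 12 livers. The study recorded the liver weight of 7 mice (VDD4 to VDD6, VDS3 to VDS6) but not of the other 5. The reason is not stated, so comparisons were also made within these sets. The genes that averaged 12 or more counts per library were tested together, 12453 in all, among them 8 of the 9 members. The member that failed the filter was Slc7a11. In bulk liver, fewer cells of a type and less RNA per cell cannot be told apart.

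Levels between genes were compared per length, as CPM per kb of exon. In VDS-F1 livers the order was Gclc, the catalytic subunit of the enzyme that starts glutathione synthesis, at 90.4 ± 16.3 CPM per kb (SD, n = 6), then its modifier subunit Gclm at 33.8 ± 2.83, the cytosolic thioredoxin reductase Txnrd1 at 19.6 ± 1.23, Nfe2l2 at 16.9 ± 1.31, Keap1 at 12.4 ± 0.332, the sulfiredoxin Srxn1 at 10.2 ± 1.61, the inducible haem oxygenase Hmox1 at 9.51 ± 2.44 and the quinone reductase Nqo1 at 2.72 ± 0.962. Slc7a11, the cystine importer, had 0.00415 ± 0.00848 CPM per kb. The ranges of neighbours in this order overlapped for Txnrd1 with Nfe2l2 and for Srxn1 with Hmox1, and not for the other pairs. In VDD-F1 livers the order was the same except that Srxn1, at 16.0 ± 5.28 CPM per kb (n = 6), lay above Keap1 at 12.02 ± 0.721, with overlapping ranges. The ranges of Txnrd1 and Nfe2l2, of Nfe2l2 and Srxn1, and of Keap1 and Hmox1 also overlapped there. Within the VDD-F1 mice Srxn1 exceeded Keap1 in 6 of 6 livers, whereas in VDS-F1 Keap1 exceeded Srxn1 in 6 of 6. This order depends on the length used, which was that of all annotated exons of a gene. In CPM, not divided by length, Keap1 lay above Srxn1 in every VDD-F1 liver but VDD2.

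The diet comparison asks whether the diet of the dam before birth was followed by a different level of these genes in the adult offspring. None of the 8 members passed edgeR's quasi-likelihood test at an adjusted p-value under 0.05 over all genes, where 5 of 12453 genes (0.0402%) did. At an unadjusted p under 0.05, 1 of the 8 members was called, against 15.8% of all genes. DESeq2 and voom each called 1 of the 8 members, against 4.05% and 4.74% of all genes. In each case the called member was Srxn1. The median log2 fold change of the 8 members, VDD-F1 over VDS-F1, was 0.145, beside 0.0041 over all genes, and 5 of 8 members lay above 0, beside 50.8% of all genes.

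**Figure D1:**
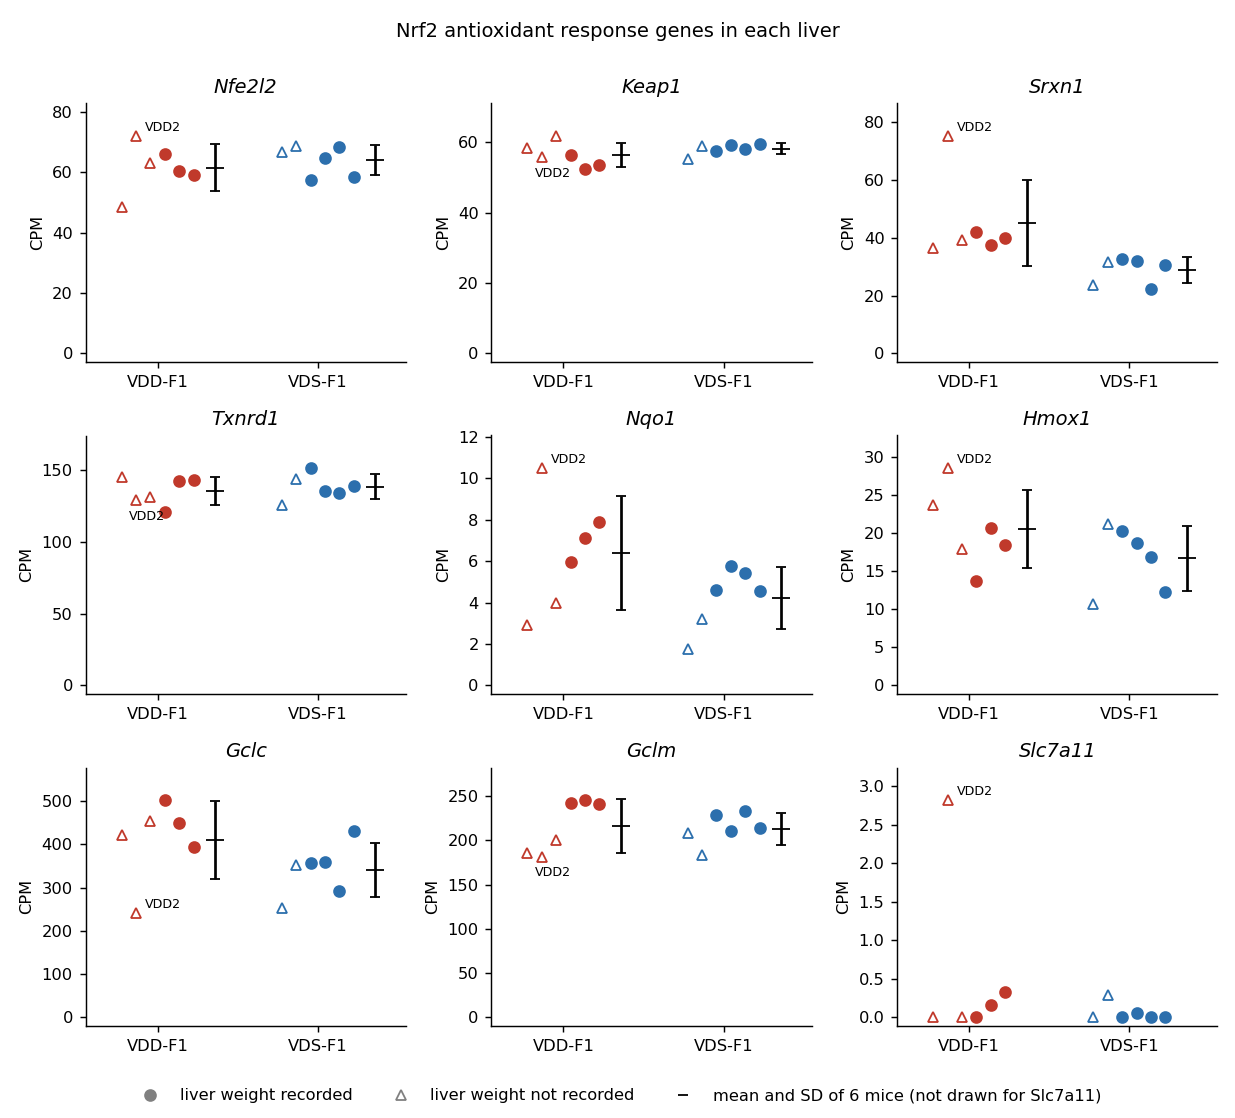
CPM of each member (y axis, linear) in the 6 VDD-F1 and 6 VDS-F1 livers (x axis), with 1 point per mouse; filled circles are mice with a recorded liver weight, open triangles mice without, and bars give the mean and SD of 6 mice. The Srxn1 points of the groups do not overlap (36.5 is the lowest in VDD-F1 and 32.5 the highest in VDS-F1), and VDD2 is the highest of the 12 livers in Nfe2l2, Nqo1, Hmox1, Srxn1 and Slc7a11.

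The ranges of the regulators overlapped between the groups. Nfe2l2 (chromosome 2, 75675513 to 75704641, minus strand, GRCm38) ranged from 48.5 to 72.0 CPM in VDD-F1 (median 61.7), and from 57.5 to 68.6 in VDS-F1 (median 65.7). The VDD-F1 mice held both the lowest value (VDD1) and the highest (VDD2), and the groups overlapped. The log2 fold change was -0.06 with a standard error of 0.093 (edgeR adjusted p = 0.808), with a 95% interval of -0.26 to 0.14. Keap1 (chromosome 9, 21229730 to 21239361, minus strand) varied least of the 9 genes. Its levels ran from 52.4 to 61.8 CPM in VDD-F1 (median 56.1), and from 55.4 to 59.6 in VDS-F1 (median 58.5). Between the groups it differed by a log2 fold change of -0.04 with an interval of -0.18 to 0.09 (edgeR adjusted p = 0.781). Among the mice with a recorded liver weight Keap1 lay at 52.4 to 56.5 CPM in 3 VDD-F1 and 57.7 to 59.6 in 4 VDS-F1, without overlap (log2 fold change -0.11, edgeR adjusted p = 0.429). It was the only 1 of the 8 members with all VDD-F1 below all VDS-F1 mice in that set, beside 11.4% of all genes, and in the other set 0 of 8 were, beside 9.5%. Keap1 overlaps the antisense gene Gm16754, and its count was 11554 over the 12 libraries on its own strand and 8120 when strand was ignored, so the stranded count was needed for it.

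Srxn1 (chromosome 2, 152105516 to 152111376, plus strand), whose product sulfiredoxin restores overoxidized peroxiredoxins, was the member in which the diet groups separated. In VDD-F1 its levels were 36.5, 75.2, 39.3, 41.8, 37.7 and 40.0 CPM in VDD1 to VDD6. In VDS-F1 they were 23.8, 31.5, 32.5, 32.0, 22.2 and 30.5 CPM in VDS1 to VDS6. Every VDD-F1 liver lay above every VDS-F1 liver, which was the case for 76 of the 12453 genes (0.61%). No member had every VDD-F1 liver below every VDS-F1 liver (0.57% of all genes). Its mean was 45.1 ± 14.9 CPM in VDD-F1 and 28.8 ± 4.54 CPM in VDS-F1 (SD, n = 6 in both). The difference was 0.65 on the log2 scale with a standard error of 0.176, or 1.57-fold. By edgeR the unadjusted p was 0.0023 and the adjusted p was 0.109, which did not pass. The exact two-sided permutation test over all splits of 6 against 6 gave 0.00216, the smallest p it can give, and 0.183 after adjustment over all genes. DESeq2 gave an adjusted p of 0.0235 and voom 0.0472, so the call rested on the method.

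Srxn1 depended on VDD2 for its size and not for its order. The other 5 VDD-F1 mice lay within 36.5 to 41.8 CPM with a mean of 39.0 ± 2.06 (SD, n = 5), still above all VDS-F1 mice. Without VDD2 the log2 fold change was 0.44 (edgeR adjusted p = 0.139, where 0.0647% of all genes passed), and DESeq2 without VDD2 gave an adjusted p of 0.0269, where 1.95% passed. Among the mice with a recorded liver weight the levels were 37.7 to 41.8 CPM in 3 VDD-F1 and 22.2 to 32.5 in 4 VDS-F1 (log2 fold change 0.44, edgeR adjusted p = 0.0544). Among those without, the levels were 36.5 to 75.2 CPM in 3 VDD-F1 and 23.8 to 31.5 in 2 VDS-F1 (log2 fold change 0.87, edgeR adjusted p = 0.9998, in a fit where 0 of 12541 genes passed and 473 had an unadjusted p under 0.05). In the set without recorded weights, Srxn1 was the only 1 of the 8 members with all VDD-F1 above all VDS-F1 mice, beside 8.96% of all genes. The diet difference in the sets was not shown to differ (interaction -0.43 on the log2 scale, edgeR adjusted p = 0.801), and without VDD2 the interaction was -0.01 (edgeR adjusted p = 0.984).

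Txnrd1 (chromosome 10, 82833951 to 82897712, plus strand), which reduces thioredoxin with NADPH and belongs to the same thiol system, had overlapping groups. It ranged from 121 to 145 CPM in VDD-F1 (median 137), and from 126 to 152 in VDS-F1 (median 138). Its log2 fold change was -0.03 with an interval of -0.19 to 0.12 (edgeR adjusted p = 0.870). VDD2, the highest in Srxn1, lay at 129 CPM, below the VDS-F1 median.

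Nqo1 (chromosome 8, 107388225 to 107403206, minus strand), a flavoprotein that reduces quinones by a pair of electrons, had a small count, 36 to 201 per library. Its levels were 2.90, 10.5, 3.99, 5.97, 7.10 and 7.88 CPM in VDD1 to VDD6 and 1.78, 3.19, 4.60, 5.77, 5.42 and 4.58 CPM in VDS1 to VDS6. In VDD-F1, 4 of 6 mice lay above the highest VDS-F1 mouse, while VDD1 and VDD3 lay below the VDS-F1 median. The log2 fold change was 0.61 with a standard error of 0.317 (edgeR adjusted p = 0.370), and 0.41 without VDD2. Nqo1 had the largest spread of the 8 members, and its coefficient of variation was 42.9% among VDD-F1 mice and 35.4% among VDS-F1 mice.

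In Nqo1 the mice without a recorded liver weight were lower in both groups except for VDD2. With a recorded weight the levels were 5.97 to 7.88 CPM in 3 VDD-F1 and 4.58 to 5.77 in 4 VDS-F1, and without one they were 2.90, 10.5 and 3.99 in VDD-F1 and 1.78 and 3.19 in VDS-F1. The difference between the sets with diet in the fit was 0.60 on the log2 scale (edgeR adjusted p = 0.416). Without VDD2 it was 1.04 (edgeR adjusted p = 0.0075, in a fit where 4.03% of all genes passed), but VDD2 is the mouse that departed from the order just described, so this value describes the other 11 mice and is no separate test of it. Within the recorded set every VDD-F1 mouse lay above every VDS-F1 mouse, which held for 3 of the 8 members (Nqo1, Gclm and Srxn1) and 12% of all genes. The Nqo1 difference there was 0.46 on the log2 scale (edgeR adjusted p = 0.128).

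Hmox1 (chromosome 8, 75093621 to 75100589, plus strand), which opens the haem ring, ranged from 13.7 to 28.5 CPM in VDD-F1 (median 19.5), and from 10.7 to 21.1 in VDS-F1 (median 17.7). The highest livers were VDD2 and VDD1, and the groups overlapped over most of their range. Its log2 fold change was 0.30 with a standard error of 0.193 (edgeR adjusted p = 0.477), and 0.18 without VDD2.

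The subunits of glutamate-cysteine ligase, the enzyme of the slow step of glutathione synthesis, had different patterns. Gclc (chromosome 9, 77754535 to 77794485, plus strand) had 422, 241, 454, 502, 449 and 394 CPM in VDD1 to VDD6 and 253, 352, 356, 358, 293 and 431 CPM in VDS1 to VDS6. VDD2, the highest liver in 4 of the 8 members tested, was the lowest of all 12 in Gclc. The log2 fold change was 0.27 with a standard error of 0.165 (edgeR adjusted p = 0.450). Without VDD2 the VDD-F1 mean was 444 ± 40.0 CPM (SD, n = 5) against 341 ± 61.4 (n = 6), with a log2 fold change of 0.38, an unadjusted p of 0.0081 and an adjusted p of 0.220 by edgeR, which did not pass.

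Gclm (chromosome 3, 122245557 to 122270732, plus strand) had 185, 182, 200, 242, 245 and 241 CPM in VDD1 to VDD6 and 208, 183, 228, 210, 234 and 214 CPM in VDS1 to VDS6. The VDD-F1 mice fell on both sides of the VDS-F1 range, 3 above it and 1 below. Its log2 fold change was 0.02 with an interval of -0.20 to 0.24 (edgeR adjusted p = 0.947). All 7 mice with a recorded liver weight lay above all 5 mice without, from 210 CPM upward against 208 CPM downward, as did 0.891% of all genes, and no member lay the other way (0.907% of all genes). The difference between the sets with diet in the fit was 0.28 with a standard error of 0.074 on the log2 scale (edgeR unadjusted p = 0.0024, adjusted p = 0.0766, where 2.46% of all genes passed and 13.9% had an unadjusted p under 0.05). DESeq2, to which these shares of all genes do not apply, gave an adjusted p of 0.0037. None of the 8 members passed in that comparison by edgeR in all 12 mice. None was shown to have a diet difference that differed between the sets. The lowest edgeR adjusted p of that interaction was 0.765, for Nqo1, where 0.0883% of all genes passed. At an unadjusted p under 0.05 there were 0 of 8 members, beside 9.01% of all genes. With 2 to 4 mice per diet in each set the intervals were wide, as for Nqo1 (-0.79, from -2.0 to 0.47 on the log2 scale).

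**Figure D2:**
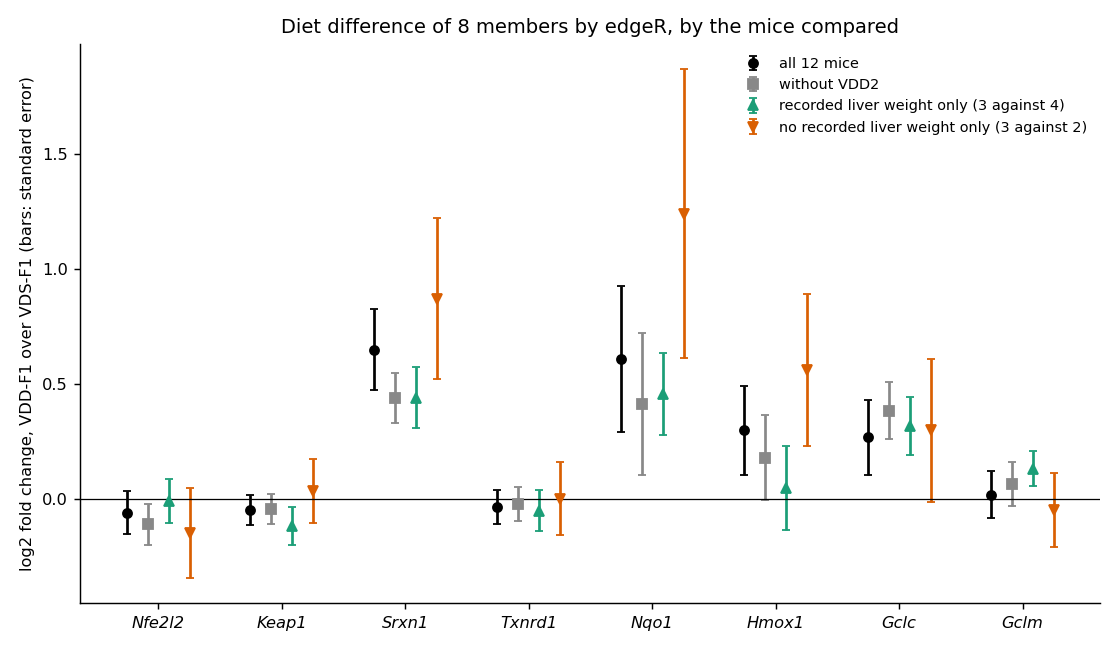
log2 fold change of VDD-F1 over VDS-F1 (y axis) for the 8 members tested (x axis), from edgeR fits on all 12 mice, without VDD2, in mice whose liver weight was recorded and in the other mice; bars are standard errors. Srxn1 lies between 0.44 and 0.87 in the 4 fits, whereas Nfe2l2, Keap1, Txnrd1 and Gclm stay close to 0.

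Slc7a11 (chromosome 3, 49892526 to 50443614, minus strand), the cystine importer that feeds glutathione synthesis and is known to be low in liver, failed the filter. Its raw counts were 0, 54, 0, 0, 3 and 7 in VDD1 to VDD6 and 0, 5, 0, 1, 0 and 0 in VDS1 to VDS6. VDD2 alone held 54 of the 70 counts, or 2.82 CPM, and 7 of 12 libraries held none. A count of 0 in 1 library allows up to 3 counts, a floor that covers counting error only. Fitted with a looser filter (a total count of at least 12), its log2 fold change was 3.09 with a standard error of 1.33 (edgeR adjusted p = 0.302), a value that rests on VDD2 and depends on the prior count.

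The place of VDD2 differed between members. It was the highest of the 12 livers in 4 of the 8 members tested (Nfe2l2, Nqo1, Hmox1 and Srxn1) beside 18.6% of all genes tested. It was the lowest in 2 of 8 (Gclc and Gclm), beside 17.6% of all genes, and VDS1 was also the lowest in 2 of 8, beside 10.3%. In VDD2 the stellate cell markers summed to 657 CPM, where VDS-F1 ranged from 260 to 384, and the cholangiocyte markers to 115 CPM, where VDS-F1 ranged from 27.6 to 51.0. The stellate marker Lrat lay at 12.9 CPM in VDD2, below its VDS-F1 mean of 19.5, and the other stellate markers lay above theirs. The Kupffer cell and macrophage markers summed to 310 CPM in VDD2 and to 166 to 310 CPM in VDS-F1. Single markers went both ways in VDD2. Cd5l, Marco, C1qa (76.9 against 36.6 CPM) and Adgre1 lay above their VDS-F1 means. Clec4f, Vsig4, Timd4 and Cd163 (1.98 against 17.1 CPM) lay below theirs. The stellate markers ranged from 270 to 657 CPM over VDD-F1, 6 of 6 markers were on the higher side in VDD-F1 (50.8% of all genes) and 3 of 6 were higher at an unadjusted p under 0.05 (9.55% of all genes). The cholangiocyte markers ranged from 23.9 to 115 CPM over VDD-F1, 5 of 5 were on the higher side and 3 were higher at an unadjusted p under 0.05. At the same threshold 3 of 8 Kupffer cell and macrophage markers were lower and 0 higher, 2 of 5 endothelial markers were lower and 1 higher, and 1 of 7 hepatocyte markers was lower and 0 higher, where 6.29% of all genes were lower. No marker of these lists had a mean below 1 CPM over the 12 mice, whereas the defining B cell and neutrophil markers all did. The part of other cell types in the Srxn1, Nqo1 and Slc7a11 values was not tested.

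**Figure D3:**
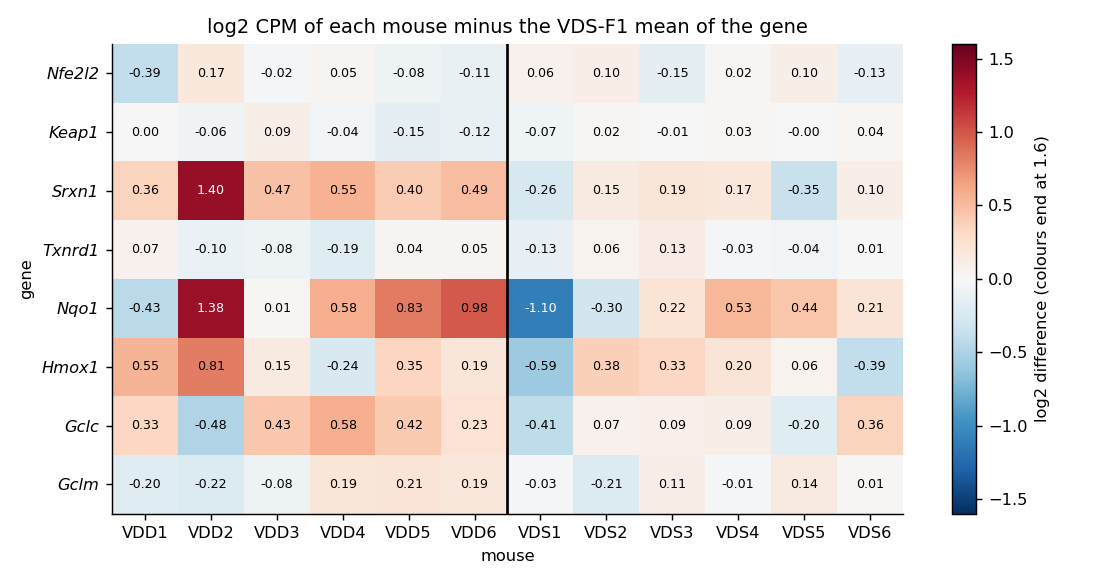
log2 CPM of each mouse (columns) minus the VDS-F1 mean of the gene, for the 8 members tested (rows); red is above that mean and blue below, and each cell prints the difference. All 6 VDD-F1 mice lie above the VDS-F1 mean in Srxn1 (0.36 to 1.40), and VDD2 is high in Srxn1 and Nqo1 (1.40 and 1.38) and low in Gclc (-0.48).

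The pattern of Nfe2l2 across the 12 mice was compared with that of every other gene tested by Pearson's r of log2 CPM, as a description over 12 livers that share their libraries. The genes most like it were Sema6c (r = 0.84), B4galt1 (0.80) and Olfm1 (0.80). No target member was near the top of the 12452 genes, with Nqo1 at rank 2900 (r = 0.23), Srxn1 at 4680 and Hmox1 at 7569. Gclc (r = -0.53) and Txnrd1 (r = -0.60) ranked 12033 and 12261, near the opposite end. Gclm and Keap1 ranked 6791 and 6729. Without VDD2 the r with Nfe2l2 was 0.016 for Nqo1, -0.40 for Srxn1 (0.10 with it) and -0.42 for Hmox1 (-0.10 with it). The genes most like Nqo1 were Ramp2 (r = 0.95), a receptor accessory protein, Hamp (0.94), which encodes the iron hormone hepcidin, and Abcb1a (0.91), an efflux pump. Over all 12 mice Srxn1 was the member closest to Nqo1, at rank 629 (r = 0.65), followed by Hmox1 at rank 1740 (r = 0.47), Gclm at 2944 (r = 0.33), Nfe2l2 at 3864, Gclc at 5427, Txnrd1 at 6395 and Keap1 at 9800. This order changed without VDD2, where the r with Nqo1 was 0.73 for Gclm, 0.51 for Gclc (0.07 with it), 0.45 for Srxn1 and 0.27 for Hmox1.

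A wider list of 65 Nrf2 pathway genes in 8 role groups, with the 9 members among them, gave 62 genes that could be tested. By edgeR 0 of the 62 passed, 7 were higher and 3 lower in VDD-F1 at an unadjusted p under 0.05 (9.55% and 6.29% of all genes), and 31 lay on each side of 0. The median log2 fold change was 0.0010. DESeq2 and voom each called 1 of the 62, Srxn1, beside 4.05% and 4.74% of all genes.

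Among the Keap1-Nrf2 control genes, 2 of 11 were higher and 0 lower at an unadjusted p under 0.05. They were Sqstm1, which encodes p62, a protein that binds Keap1 (503 ± 34.6 against 426 ± 32.9 CPM, log2 fold change 0.24, unadjusted p = 0.0124 and adjusted p = 0.192 by edgeR), and the small Maf gene Maff (3.26 ± 0.947 against 1.91 ± 1.12 CPM, log2 fold change 0.78, unadjusted p = 0.0328 and adjusted p = 0.272 by edgeR). The Maff log2 fold change was 0.09 in the recorded set and 1.83 in the other set, and that of Sqstm1 was 0.11 and 0.43. The difference between the sets did not pass for either gene (edgeR interaction, adjusted p = 0.343 for Maff and 0.563 for Sqstm1). The smallest p on the lower side was that of Mafg, with a log2 fold change of -0.23 (edgeR adjusted p = 0.502). Among the 7 glutathione and cystine genes tested, Gpx4, which reduces lipid peroxides, had 160 ± 30.3 against 131 ± 5.34 CPM (log2 fold change 0.29, adjusted p = 0.234 by edgeR). On the lower side the smallest p was that of Gpx1, with a log2 fold change of -0.15 (edgeR adjusted p = 0.606). In the thioredoxin and peroxiredoxin group Srxn1 was the only 1 of 8 at an unadjusted p under 0.05, and Txnrd2, the mitochondrial thioredoxin reductase, had the smallest p on the lower side with a log2 fold change of -0.17 (edgeR adjusted p = 0.412). No NADPH supply gene of 6 reached an unadjusted p under 0.05, with Pgd at 0.15 and Tkt at -0.21 on the log2 scale nearest to it in each direction.

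Of 15 quinone and electrophile genes, 1 was higher and 1 lower at an unadjusted p under 0.05. Gstm3, a glutathione S-transferase, had 150 ± 92.5 against 58.2 ± 27.9 CPM (log2 fold change 1.37, unadjusted p = 0.0167 and adjusted p = 0.215 by edgeR), with 247 CPM in VDD2. Ugt1a6b, a glucuronosyltransferase, had 37.9 ± 5.37 against 48.6 ± 10.1 CPM (log2 fold change -0.36, adjusted p = 0.243 by edgeR). These families share near-identical copies and, for Ugt1a, exons, so the split of reads among their members is uncertain. Of 7 haem and iron genes, the ferritin light chain Ftl1 had 1872 ± 261 against 1438 ± 213 CPM (log2 fold change 0.38, unadjusted p = 0.0097 and adjusted p = 0.172 by edgeR), and the biliverdin reductase Blvrb had 51.2 ± 5.15 against 65.9 ± 15.1 CPM (log2 fold change -0.36, adjusted p = 0.235 by edgeR). Of 3 efflux transporters, Abcc4 had 6.998 ± 4.10 against 3.32 ± 0.738 CPM (log2 fold change 1.08, unadjusted p = 0.0090 and adjusted p = 0.167 by edgeR), and Abcc3 lay on the lower side (-0.40, edgeR adjusted p = 0.516). Catalase, Cat, which splits hydrogen peroxide, had 2653 ± 402 against 3328 ± 378 CPM (log2 fold change -0.33, adjusted p = 0.235 by edgeR), and Sod3 was nearest on the higher side (0.13, edgeR adjusted p = 0.681).

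**Figure D4:**
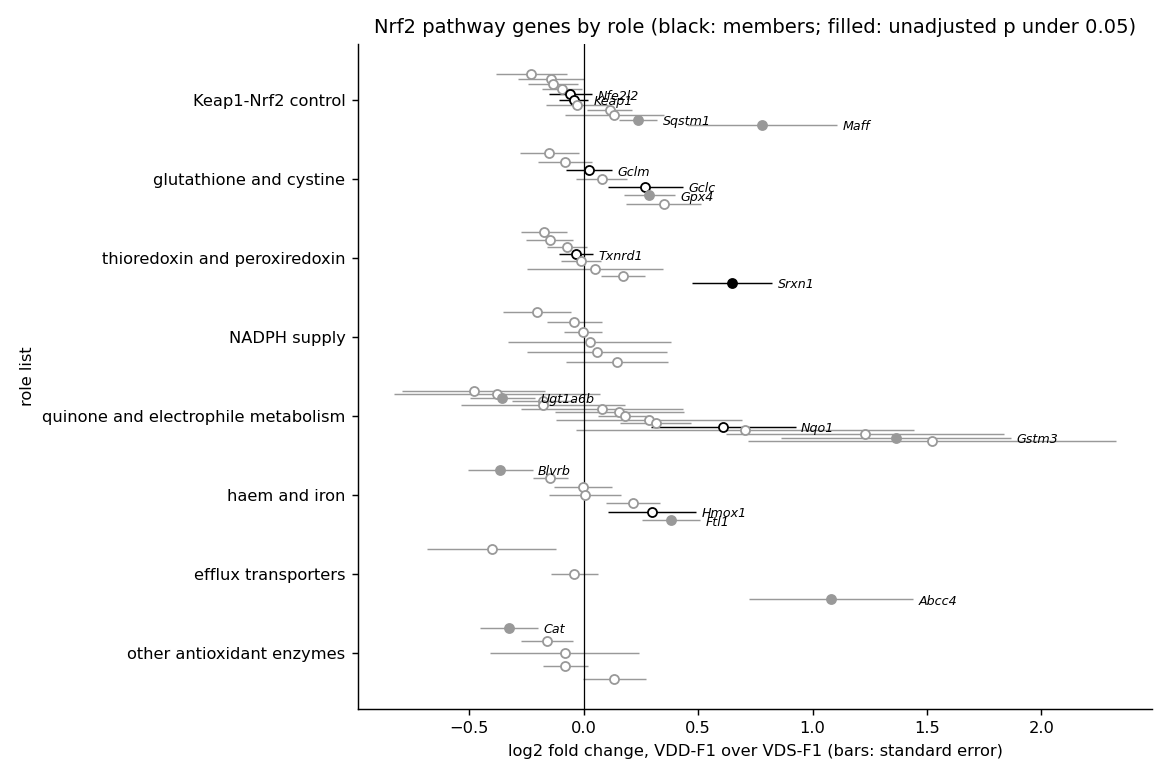
log2 fold change of VDD-F1 over VDS-F1 (x axis, bars are standard errors) for the 62 pathway genes tested, in rows by role; members are black, and filled points had an unadjusted p under 0.05. The points spread on both sides of 0 in most role groups, with 31 above it and 31 below, and Srxn1 is the only filled member.

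In the 7 mice with a recorded liver weight, 14 of the 62 pathway genes passed edgeR's test, 8 higher and 6 lower in VDD-F1, where 11% of all genes passed (5.87% higher and 5.11% lower). None of the 14 was a member. The higher ones were Gstm3 (log2 fold change 1.40, adjusted p = 0.00014), Abcc4 (1.57), Gsta1 (1.66), Gsta2 (0.88), Cbr1 (0.51), Ftl1 (0.40), Nqo2 (0.34) and Prdx1 (0.32), with edgeR adjusted p from 0.00014 to 0.0451. The lower ones were Abcc3 (-0.56), Blvrb (-0.50), Ugt1a6b (-0.48), Tkt (-0.43), Nfe2l1 (-0.38) and Cat (-0.33), with edgeR adjusted p from 0.0053 to 0.0319. In the 5 mice without a recorded weight 0 of 62 passed, as did 0 of all genes. In that set the 8 higher genes were also above 0, though Abcc4 (0.33), Nqo2 (0.02) and Prdx1 (0.008) lay within their standard errors of it. Of the 6 lower genes only Cat was below 0 (-0.21), and Abcc3 (0.47), Nfe2l1 (0.11), Blvrb (0.07), Tkt (0.02) and Ugt1a6b (0.02) were above it. Of these 6, all but Abcc3 lay within their standard errors of 0. The share of all genes that kept their sign between the sets was not counted, so these signs are a description. The 14 genes were taken from the fit in which they passed. By edgeR's interaction test 4 of the 14 had an unadjusted p under 0.05 (Blvrb, Abcc3, Ugt1a6b and Abcc4), beside 9.01% of all genes. The 14 were selected on 1 of the sets that this test compares, so the count is read as a description, and 0 passed after adjustment (the lowest adjusted p was 0.287, for Blvrb).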

How the data were processed

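RNA-seq was measured in 12 mouse livers, 1 library per mouse, 6 VDD-F1 and 6 VDS-F1. The authors prepared ribosomal RNA depleted libraries, trimmed the reads, aligned them to mm10 with STAR (named in the submitters' processing notes, version not given in the sources used here) with GENCODE M15, and deposited the raw count of fragments on each gene, unstranded and for each strand. A fragment with several places in the genome is not counted. Names and positions came from GENCODE M21 on GRCm38, which matched 52489 of 52636 genes. Rows that name no gene (unmapped, 23.5% to 37.9% of fragments, multimapping, 6.69% to 8.92%, no feature and ambiguous, 4.30% to 12.4%) were left out. Counted fragments per library ranged from 14275793 to 20815066, and a gene at a mean count of 12 has an imprecise fold change.

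The reverse-strand count was tested with edgeR 4.0.16 in R 4.3.3 (TMM, quasi-likelihood F test in its legacy form, Benjamini-Hochberg adjustment over the genes that averaged 12 or more counts per library). A DEG had to pass an adjusted p of 0.05 and a fold change of 1 on the log2 scale in either direction, as in the study, which used DESeq2. CPM was TMM scaled, and log2 CPM used a prior count of 2. Intervals at 95% are from the t distribution with the degrees of freedom of the quasi-likelihood fit, and include the spread between mice. Exact permutation tests ran over all splits of the 12 mice by diet. Fits were also made with the set of mice (liver weight recorded or not) and its interaction with diet. The alternatives were DESeq2 1.42.0, voom with sample quality weights (limma 3.58.1), other forms, filters, scalings and strands, sets of mice, a replicate block and each mouse left out. DESeq2 without VDD2 and DESeq2 with the set as covariate were chosen after seeing the data. p-values measure the spread between mice, which may share dams. The scripts were tested on simulated data.

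The members, the wider pathway list, the marker lists and the rule were chosen with earlier results of these data known. The rule names all 9 members, from each role list every gene that passed plus the smallest unadjusted p in each direction, and the 3 genes most like Nfe2l2 and Nqo1. Maff, the genes named from the recorded set alone and the single cell type markers named for VDD2 were chosen after their values were seen. Python 3.11.15, pandas 2.3.3, NumPy 2.4.6 and matplotlib 3.10.9 were used. Upstream sequences were matched by symbol to the RefSeq table for 7 of the 9 members.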

Additional observations from a re-analysis of the deposited data

Results flagged for a closer look

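A test for a mouse far from the others of its group was run on 9 members in 2 groups, 18 tests in all. Chance flags about 1 in 20 where values are near normal. The Slc7a11 counts, most of them 0, are not, so that rate does not apply to them. Srxn1 in VDD2 lay at 75.2 CPM, where the next VDD-F1 mouse lay at 41.8. Slc7a11 in VDD2 lay at 2.82 CPM, where the next VDD-F1 mouse lay at 0.326. Slc7a11 in VDS2 lay at 0.295 CPM, which is 5 counts, where the next VDS-F1 mouse lay at 0.052. In VDD2 the stellate and cholangiocyte marker sums were 657 and 115 CPM, the highest of the 12 mice. The T and NK cell sum (5.85 CPM) and the B cell sum (4.70 CPM) were also highest in VDD2. All markers of these last lists but Cd3e had a mean below 1 CPM. The part of these cell types in the values above was not tested.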

How the results depend on the processing

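With edgeR 5 DEGs were called between the diets over all genes. DESeq2 called 253, voom 252, the newer form of edgeR 17, a robust dispersion 2, no filter on low counts 70, the set of mice as covariate 21, the mice with a recorded liver weight alone 536 and those without 0 (473 at an unadjusted p under 0.05). The additions after seeing the data, DESeq2 without VDD2 and DESeq2 with the set as covariate, called 114 and 283. Leaving out each mouse in turn gave 0 to 260 for diet (260 without VDD1), 68 to 178 for the set of mice, where 111 were called, and 3 to 244 for the interaction, where 10 were called and DESeq2 called 97. The counts of members and pathway genes that follow use an adjusted p under 0.05 alone, without the fold change of a DEG. By that rule edgeR called 0 members, also with each mouse left out, and DESeq2, voom and both additions called 1 each. That 1 was Srxn1, which is not among the DEGs counted above. DESeq2 called 4.05% of all genes by that rule, voom 4.74%, and the additions 1.95% and 4.96%. Srxn1 kept its direction in 25 alternatives and both additions (0.44 to 0.70 with each mouse left out), with adjusted p from 0.0235 to 1. It passed in 4, DESeq2, voom (log2 fold change 0.50) and the DESeq2 fits without VDD2 (0.44) and with the set as covariate (0.61, adjusted p = 0.0305). The wider pathway count of 62 genes at an adjusted p under 0.05 moved from 0 to 14 in the recorded set (11% of all genes), 2 with DESeq2 without VDD2 (1.95%), 4 with DESeq2 and the set as covariate (4.96%), and 1 with DESeq2 (4.05%), with voom (4.74%) and with edgeR without VDD1 (3.37%). Among the 5 mice with no recorded weight the log2 fold change turned to -0.0466 for Gclm, 0.037 for Keap1 and 0.0023 for Txnrd1. With each mouse left out the sign turned in Gclm (-0.0212 to 0.0669) and Nfe2l2 (-0.11 to 0.00096) for diet, in Nfe2l2 (-0.12 to 0.0069), Srxn1 (-0.26 to 0.0806) and Txnrd1 (-0.0116 to 0.0661) for the set, and in Gclc (-0.24 to 0.24), Nfe2l2 (-0.0040 to 0.28) and Txnrd1 (-0.15 to 0.0444) for the interaction. None of these values had passed. The Nqo1 set difference ranged from 0.39 to 1.04, the latter without VDD2. Of 216 alternative values of the members for diet, 204 kept their direction and side of the threshold, 4 passed in addition and 8 turned. The cause of these changes was not tested.

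The replicate numbers only name the mice: the deviations of same-numbered mice had correlations of -0.0762 to 0.103. With them as a replicate block 17 DEGs were called, Srxn1 had a log2 fold change of 0.61 (edgeR adjusted p = 0.104) and 0 members passed.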
